A study of Mus musculus with 27 samples.

Results

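The Mediator genes were taken as the rows of the deposited RNA table whose symbol is Med followed by a number, with or without a final l, or is Cdk8, Cdk19 or Ccnc. This rule found 33 genes among 38582. They comprised 7 genes of the head, 9 of the middle, 9 placed with the tail, the scaffold gene Med14 and 7 genes of the kinase module. Of the 33, 32 reached a mean of 1 FPKM (fragments per kilobase, a level corrected for transcript length) over the 4 RNA libraries and were tested. The exception was Med12l, listed at 0.4 and 0.3 FPKM in the control libraries and at 0.5 and 0.4 in the knockdown libraries.

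Mediator is a large complex that passes signals from transcription factors at enhancers and promoters to RNA polymerase II (Pol II). Its head and middle contact the polymerase, MED14 forms the backbone that joins the modules, the tail receives many activators, and a kinase module built on CDK8 or CDK19 with cyclin C binds the rest reversibly. In embryonic stem cells Mediator is known, together with cohesin, for occupying the enhancers and promoters of genes that maintain pluripotency.

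All samples were mouse embryonic stem cells grown with serum and leukemia inhibitory factor. RNA was sequenced in wild-type cells with a control short hairpin RNA (shCtl, 2 libraries) or one against WDR43 (shWDR43, 2 libraries), a WD-repeat protein of the nucleolus that was studied here for its binding to open chromatin. Chromatin immunoprecipitation sequencing mapped Pol II in 2 shCtl and 2 shWDR43 libraries for each of 3 antibodies, which read hypophosphorylated Pol II (hypoP, antibody 8WG16), Pol II phosphorylated at serine 5 (Ser5P, typical of starts of genes) and at serine 2 (Ser2P, typical of elongating Pol II near ends of genes). The labels give the wild-type genotype for the shCtl libraries of hypoP and for Ser5P and RNA. WDR43 was mapped through a FLAG tag in 1 library each of cells with Fbio-tagged WDR43 given the solvent DMSO, DRB (which inhibits CDK9, the elongation kinase) or with actinomycin D (ActD, which stops transcription), and in 1 library each named FB and cFB-KI. Clone, hairpin sequence, doses and times were not given in the sources used here. For the chromatin libraries the nature of the numbers 1 and 2 is unstated, and their spread may therefore be technical.

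Wdr43, the target of the hairpin, stood at 82.3 and 78.2 FPKM with shCtl against 21.2 and 20.7 in shWDR43, so the labels and the target agreed in all 4 libraries. The FPKM totals were 1015232.2 and 1040749.4 for shCtl against 687051.2 and 681178.2 for shWDR43, on a scale the authors set with spike-in RNA. The 10 stem cell markers were present in every library, with summed levels of 2630.6 to 5228.9 FPKM. They moved with the comparison, from 5132.6 and 5228.9 with shCtl to 2807.0 and 2630.6 with shWDR43, with 9 of 10 lower against 42.7% of all tested genes. Of 12 fibroblast markers, Dcn and Lum were at 0 and Col3a1 stayed below 1 FPKM in all libraries, and the list summed to 328.4 and 350.7 with shCtl against 337.4 and 450.9 with shWDR43. Of its 9 tested genes 3 were higher (S100a4, Tagln and Timp3) and 2 lower (Fn1 and Thy1), where 6.10% of all tested genes were higher. Of 12 differentiation markers, T, Sox17, Foxa2, Pax6 and Cdx2 stayed below 1 FPKM, and the list summed to 15.5 and 14.8 with shCtl against 20.1 and 20.2 with shWDR43. Of its 7 tested genes 3 were higher (Gata6, Krt7 and Krt19) and 1 lower (Sox1). The steepest of these rises, on the log2 scale, were 1.32 for Tagln, 1.28 for Krt19, 1.27 for Krt7 and 1.02 for Timp3, all from levels below 4 FPKM in shCtl. The part of these markers in the Mediator results was not tested.

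Promoter sequences are shown for the Mediator genes with the 2 lowest and 2 highest RNA changes among those with 1 promoter entry, since WDR43 and Pol II peaks lay at the starts of these loci. Each is the 250 bases before the RefSeq start, on the strand of the gene (build GRCm38.p6), with motif matches in capitals.
Cdk8 promoter, chr5:146231000-146231249, plus strand: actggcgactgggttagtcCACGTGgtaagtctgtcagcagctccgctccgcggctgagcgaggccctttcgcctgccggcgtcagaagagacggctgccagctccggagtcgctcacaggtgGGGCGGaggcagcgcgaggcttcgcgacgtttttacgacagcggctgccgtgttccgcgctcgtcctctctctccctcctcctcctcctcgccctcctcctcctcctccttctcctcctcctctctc
Med18 promoter, chr4:132463922-132464171, minus strand: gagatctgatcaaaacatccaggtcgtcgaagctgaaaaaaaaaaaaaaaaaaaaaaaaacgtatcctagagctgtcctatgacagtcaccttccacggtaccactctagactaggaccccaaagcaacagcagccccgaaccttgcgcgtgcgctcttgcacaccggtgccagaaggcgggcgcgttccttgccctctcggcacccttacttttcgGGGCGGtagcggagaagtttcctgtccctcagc
Med28 promoter, chr5:45519979-45520228, plus strand: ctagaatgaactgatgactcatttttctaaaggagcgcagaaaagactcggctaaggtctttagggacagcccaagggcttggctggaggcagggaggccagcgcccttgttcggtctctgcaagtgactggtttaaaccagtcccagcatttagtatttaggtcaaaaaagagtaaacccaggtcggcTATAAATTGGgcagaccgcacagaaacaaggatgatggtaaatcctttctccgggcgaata
Med31 promoter, chr11:72215593-72215842, minus strand: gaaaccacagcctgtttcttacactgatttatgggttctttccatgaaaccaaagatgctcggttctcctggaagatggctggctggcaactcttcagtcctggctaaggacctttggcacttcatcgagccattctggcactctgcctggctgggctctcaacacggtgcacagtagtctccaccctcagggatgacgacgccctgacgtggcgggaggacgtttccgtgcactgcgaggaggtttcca
The capitals mark an E box (CACGTG) and a GC box (GGGCGG) in Cdk8, and a GC box in Med18. In Med28 they mark a TATA box (TATAAA) and, on the other strand, a CCAAT box (CCAAT), which overlap. In Med31 none of the searched letters occurred.

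RefSeq promoters were matched by symbol for 28 of the 33 genes, with 32 entries. Cdk19, Med23, Med24, Med30 and Med8 were not matched. The GC content of the Mediator promoters had a median of 56% (33.2 to 84%), against 52.4% over all 32851 promoter entries of the same length, and they held a median of 15 CpG dinucleotides against 6. Both strands were searched. The GC box stood in 20 of 32 Mediator entries (62.5%) and in 32.7% of all entries. An ETS-type motif (CCGGAAG) stood in 6 entries (18.8%, against 6.91%), those of Med10, Med14, Med15, Med17, Med19 and Med4. The CCAAT box stood in 12 entries (37.5%, against 33.8%), the TATA box in those of Med16, Med28 and Med7 (9.38%, against 12.4%) and the E box in those of Cdk8 and Med17 (6.25%, against 6.02%). A CRE (TGACGTCA) stood in that of Med21 (3.12%, against 1.55%), and the NRF1 and YY1 motifs stood in 0 of 32, against 0.782% and 0.301%. A match describes the letters and is not evidence of a bound site.

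In control cells the Mediator RNAs covered a wide range of levels per length. Med21 and Med4, subunits of the middle, stood highest at 66.45 ± 2.05 and 54.95 ± 0.778 FPKM (SD, n = 2 each here and below). The head subunit Med6 (37.5 ± 0.141), the middle subunit Med19 (33.2 ± 1.41) and the kinase Cdk8 (27.4 ± 0.849) followed. Med30 (26.65 ± 2.76) and Med25 (25.0 ± 3.68) came next, and their libraries and those of Cdk8 overlapped, so the order of these 3 is not resolved. At the low end stood Med12 (5.75 ± 0.354), Med28 (5.45 ± 0.495), Cdk19 (3.1 ± 0.566) and Med12l (0.35 ± 0.0707). The backbone gene Med14 stood at 6.9 ± 1.41 FPKM.

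**Figure D1:**
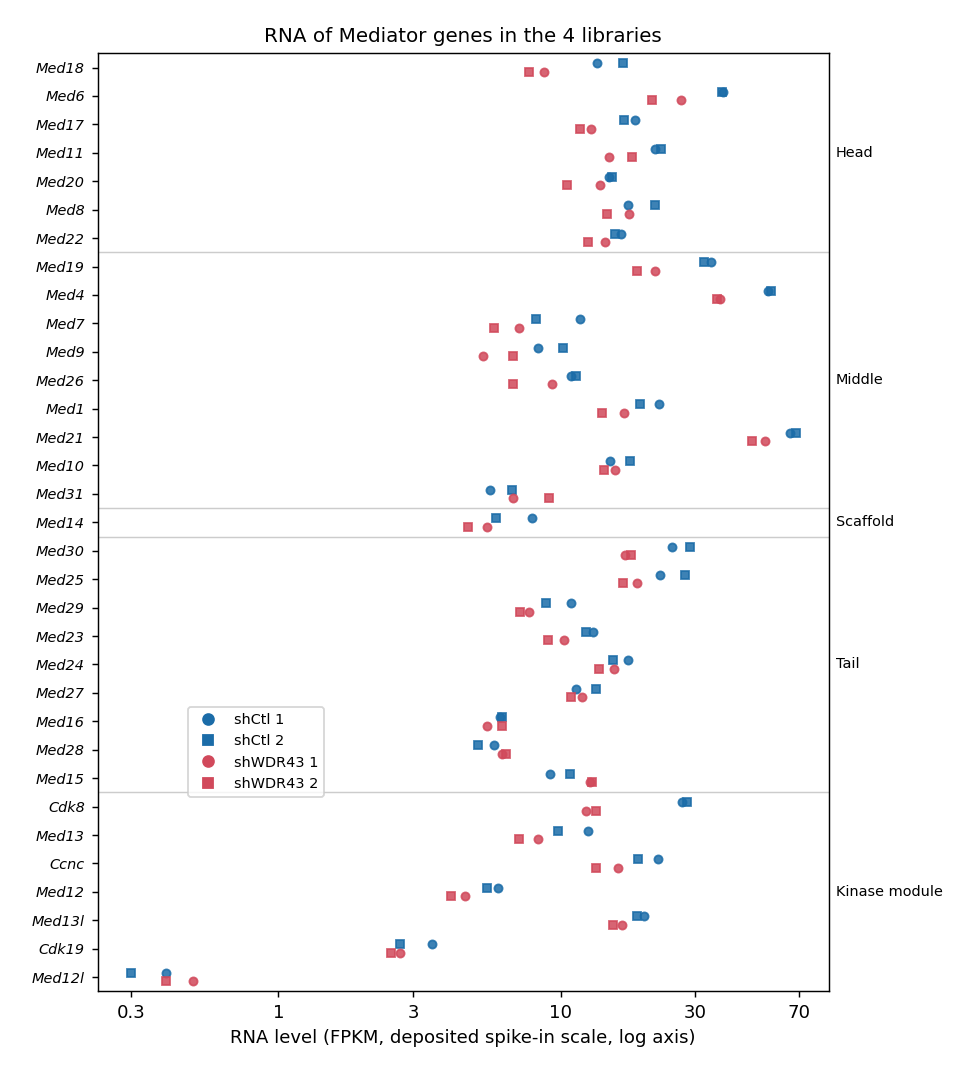
RNA level of the 33 Mediator genes (FPKM on a log axis) in the 2 shCtl and 2 shWDR43 libraries, 1 point per library, grouped by module. Most shWDR43 points lie left of the shCtl points, as for Cdk8 at 12.3 and 13.3 against 26.8 and 28.0, while those of Med15, Med28 and Med31 lie to the right.

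The first question was whether Mediator RNAs changed when WDR43 was reduced. On the spike-in scale 13 of the 32 tested Mediator genes fell in shWDR43, 0 rose and 19 did not pass the test (limma on log2(FPKM + 1), Benjamini-Hochberg adjusted p under 0.05 over 12452 genes). That is 40.6% lower, close to the background, where 42.7% of all tested genes were lower and 6.10% higher. The median log2 fold change of the Mediator genes was -0.38, against -0.39 for all tested genes. At an unadjusted p under 0.05, 18 Mediator genes were lower and 1, Med15, was higher, against 49.0% and 7.51% of all tested genes. In 23 genes both shWDR43 libraries lay below both shCtl libraries (63.6% of all tested genes did), and in 3 they lay above (12.6% did). In bulk samples, fewer cells of a type and less RNA per cell cannot be told apart.

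The summed FPKM of the 33 genes was 586.3 and 592.3 with shCtl against 452.2 and 416.1 with shWDR43. As a share of the library total, that was 0.0578% and 0.0569% against 0.0658% and 0.0611%. The sum was therefore lower in both shWDR43 libraries, and its share of the total was higher in both. The shWDR43 sum as a percentage of the shCtl sum was 66.9% in the kinase module, 71.6% in the head, 72.5% in the middle, 73.9% for Med14 and 82.8% in the tail. The library totals fell as well, from 1015232.2 and 1040749.4 to 687051.2 and 681178.2, so these percentages are not read as particular to the modules. In the kinase module Cdk8 fell most, from 26.8 and 28.0 to 12.3 and 13.3 FPKM. The percentage without Cdk8 was not computed, so the lowest place is not read as shared by that module.

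Centring each library on its median moved every log2 fold change up by 0.33. After it 3 Mediator genes were lower (Cdk8, Med18 and Med19) and 3 were higher (Med15, Med28 and Med31), against 20.9% and 13.0% of all tested genes. The Mediator median was then -0.05, and 20 of 32 values lay below 0 in place of 29. Over all 12452 tested genes the median was -0.06, and 6933 values lay below 0 in place of 9729. The sign turned positive for Cdk19, Med8, Med10, Med13l, Med16, Med20, Med22, Med24 and Med27, none of which had passed the test. In limma without shCtl 1, shCtl 2, shWDR43 1 or shWDR43 2, 0 Mediator genes passed, and 6, 10, 12 and 9 were lower at an unadjusted p under 0.05, against 31.6%, 36.5%, 39.4% and 31.5% of all tested genes. Each of these fits left 1 library in a group and called no gene at all, so the lack of calls is not particular to Mediator. The 13 genes called lower in the full fit kept a negative log2 fold change in each of these fits. That was fixed in advance, since both shWDR43 libraries of each lay below both shCtl libraries. Without the filter on low values 3 remained lower (Cdk8, Med19 and Med4), with 22832 genes tested and 11.4% of them lower.

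**Figure D2:**
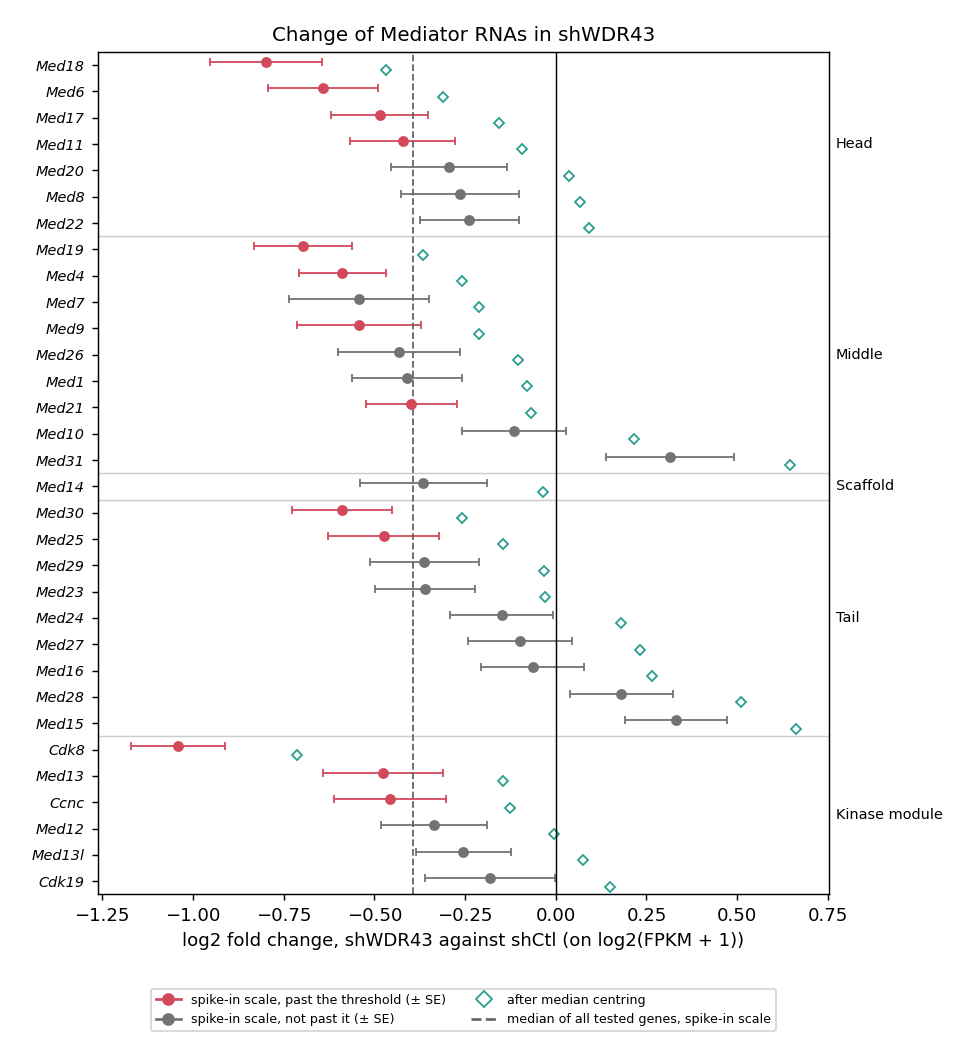
Log2 fold change of the 32 tested Mediator genes in shWDR43 against shCtl, with SE bars on the spike-in scale (filled points) and after median centring (open diamonds). Cdk8 lies farthest to the left at -1.04, and the dashed line marks the median of all tested genes at -0.39.

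In the head, which binds the polymerase and the general factors, 4 of 7 genes fell and 0 rose. Over all tested genes 42.7% were lower and 6.10% higher. Med18 (NM_026039, chromosome 4, 132014644 to 132019836, mm9), part of the mobile jaw of the head, stood at 13.5 and 16.6 FPKM with shCtl against 8.7 and 7.7 in shWDR43. The groups did not overlap, and its log2 fold change was -0.80 ± 0.15 (SE; adjusted p = 0.00632). Med6 (NM_027213, chromosome 12, 82674551 to 82695945) stood at 37.6 and 37.4 FPKM with shCtl against 26.7 and 21.0 in shWDR43. Its shWDR43 libraries differed more from each other than its shCtl libraries did, and both were lower, with a log2 fold change of -0.64 ± 0.15 (adjusted p = 0.0130). The central head subunit Med17 (-0.49) and Med11 (-0.42) also fell, with adjusted p of 0.0228 and 0.0465.

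At the other end of the head, Med22 stood at 16.3 and 15.6 FPKM with shCtl against 14.3 and 12.5 in shWDR43 (-0.24 ± 0.14, adjusted p = 0.185). Med8 stood at 17.3 and 21.6 FPKM with shCtl against 17.4 and 14.6 in shWDR43, so its groups overlapped (-0.26, adjusted p = 0.214). Med20, the partner of Med18 in the jaw, did not pass either (-0.29, adjusted p = 0.166).

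In the middle, 4 of 9 genes fell and 0 rose, against 42.7% and 6.10% of all tested genes. Med19 (NM_025885, chromosome 2, 84518559 to 84528372) stood at 34.2 and 32.2 FPKM with shCtl against 21.6 and 18.7 in shWDR43. These groups were well apart, with a log2 fold change of -0.70 ± 0.14 (adjusted p = 0.00656). Med4 (NM_026119, chromosome 14, 73909856 to 73918352) stood at 54.4 and 55.5 FPKM with shCtl against 36.6 and 35.8 in shWDR43. Replicates of Med4 were close to each other in both groups, and its log2 fold change was -0.59 ± 0.12 (adjusted p = 0.00765). Med9 (-0.54) and Med21 (-0.40) fell with adjusted p of 0.0359 and 0.0354.

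Med31, a small conserved subunit of the middle, had the opposite sign, at 5.6 and 6.7 FPKM in shCtl and 6.8 and 9.1 in shWDR43. The lower shWDR43 library lay just above the higher shCtl library, and the difference did not pass the test (0.32 ± 0.18, adjusted p = 0.174). It was 0.13 without shWDR43 2 and 0.50 without shWDR43 1. After centring it was 0.65, with an adjusted p of 0.0402. Med10 stood at 14.9 and 17.6 FPKM with shCtl against 15.6 and 14.2 in shWDR43, so its groups overlapped (-0.11, adjusted p = 0.531). The other 3 genes of the middle lay below 0 without passing: Med7 (-0.54, adjusted p = 0.0525), Med26, which links Mediator to elongation factors (-0.43, adjusted p = 0.0696), and Med1, the contact for nuclear receptors (-0.41, adjusted p = 0.0601). With a minimum of 5 FPKM, which left 7893 genes to adjust over, these 3 and Med23 were called lower. In that fit 61.9% of the 7893 genes were lower.

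Med14 (NM_001048208, chromosome X, 12252497 to 12339099), the backbone, stood at 7.9 and 5.9 FPKM with shCtl against 5.5 and 4.7 in shWDR43. The groups did not overlap, but the shCtl libraries lay far apart and the difference did not pass the test (-0.36 ± 0.17, adjusted p = 0.123). It was -0.18 without shCtl 1 and -0.55 without shCtl 2.

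Among the genes placed with the tail, 2 of 9 fell and 0 rose, against 42.7% and 6.10% of all tested genes. Med30, a subunit found in animals, stood at 24.7 and 28.6 FPKM with shCtl against 16.9 and 17.8 in shWDR43 (-0.59 ± 0.14, adjusted p = 0.0124). Med25, a target of the viral activator VP16, stood at 22.4 and 27.6 FPKM with shCtl against 18.7 and 16.6 in shWDR43 (-0.47 ± 0.15, adjusted p = 0.0385). For both genes each shWDR43 library was below each shCtl library.

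Med15, a subunit contacted by SREBP and SMAD factors, stood at 9.2 and 10.8 FPKM with shCtl against 12.7 and 12.9 in shWDR43. It was the tested Mediator gene with the highest log2 fold change, 0.33 ± 0.14, but did not pass on the spike-in scale (adjusted p = 0.0884). Med28 stood at 5.8 and 5.1 FPKM with shCtl against 6.2 and 6.4 in shWDR43 (0.18 ± 0.14, adjusted p = 0.321). In both genes the shWDR43 libraries lay above the shCtl libraries, and after centring both were called higher, with log2 fold changes of 0.66 and 0.51 (adjusted p = 0.0112 and 0.0272). The groups of Med16 (-0.06), Med27 (-0.10) and Med24 (-0.15) overlapped, and Med29 (-0.36) and Med23 (-0.36) did not pass, with adjusted p of 0.0837 and 0.0663. The median of the tail was -0.15, against -0.42 in the head, -0.43 in the middle and -0.40 in the kinase module. The difference between modules was not tested.

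In the kinase module, 3 of 6 tested genes fell and 0 rose, against 42.7% and 6.10% of all tested genes. Cdk8 (NM_153599, chromosome 5, 147043251 to 147114450), the kinase itself, stood at 26.8 and 28.0 FPKM with shCtl against 12.3 and 13.3 in shWDR43. Its mean was 2.14-fold lower (27.4 ± 0.849 against 12.8 ± 0.707), the lowest log2 fold change of the tested Mediator genes at -1.04 ± 0.13 (adjusted p = 0.00176). It was also lower after centring (-0.71, adjusted p = 0.00607). Its paralog Cdk19 stood at 3.5 and 2.7 FPKM with shCtl against 2.7 and 2.5 in shWDR43, so its groups touched (-0.18 ± 0.18, adjusted p = 0.423). Ccnc, the cyclin that partners both kinases, fell by 0.46 on the log2 scale (adjusted p = 0.0450).

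Med13, which ties the kinase module to the rest of Mediator, stood at 12.5 and 9.8 FPKM with shCtl against 8.3 and 7.1 in shWDR43 (-0.48 ± 0.16, adjusted p = 0.0479). Without shCtl 1 its log2 fold change was -0.32. Its paralog Med13l stood at 19.7 and 18.6 FPKM with shCtl against 16.5 and 15.3 in shWDR43 (-0.25 ± 0.13, adjusted p = 0.145). Neither pair of groups overlapped. Med12, the activator of the kinase, stood at 6.0 and 5.5 FPKM with shCtl against 4.6 and 4.1 in shWDR43 (-0.34, adjusted p = 0.0968).

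Within the paralog pairs, Cdk8 made up 88.4% and 91.2% of the summed Cdk8 and Cdk19 FPKM in shCtl and 82% and 84.2% in shWDR43. Med12 made up 93.8% and 94.8% of the pair with Med12l in shCtl and 90.2% and 91.1% in shWDR43. Med12l stood at only 0.3 to 0.5 FPKM, given to 1 decimal, and its groups touched, so this share is imprecise. Med13 was the minor partner of Med13l, at 38.8% and 34.5% in shCtl and 33.5% and 31.7% in shWDR43. In all 3 pairs both shWDR43 shares lay below both shCtl shares, and a two-sided exact permutation test gave p = 0.333 for each, the smallest that 2 against 2 libraries allow. Reads shared between paralogs may be split by the counting, which the sources used here do not describe.

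The authors' deposited table gives 29 Mediator genes a negative and 4 a positive fold change. Among them, 12 negative ones and 1 positive one, Med15 at 1.28, have an unadjusted p under 0.05 in the authors' deposited table, as do 42.7% and 6.92% of the tested genes. The largest entry there is Cdk8, at -2.13 in the authors' deposited table.

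Genes that act beside Mediator at promoters were set against it, with counts over the same fit. The background there was 42.7% of all tested genes lower and 6.10% higher. The middle value of all tested genes was -0.39 on the log2 scale. Of 17 genes of the general transcription factors, 15 fell and 0 rose, with a median log2 fold change of -0.61. Gtf2e2 of TFIIE (-0.90, adjusted p = 0.00399) and Gtf2h5 of TFIIH (-0.84, adjusted p = 0.00307) were lowest, and Gtf2h3 (-0.34) and Gtf2e1 (-0.16, but 0.17 after centring) did not pass. Of 15 tested TFIID genes 10 fell and 0 rose, with a median of -0.58. Taf13 (-1.22, adjusted p = 0.00257) and Taf9 (-0.92, adjusted p = 0.00406) were lowest, while Taf8 (-0.23, but 0.10 after centring) and Taf6 (0.21) did not pass.

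Of 10 cohesin genes, which encode the ring complex and its loaders and regulators, 5 fell and 0 rose, with a median of -0.63. The share that fell was close to the 42.7% of all tested genes that did, while 6.10% of them rose. Their median was -0.39. The cohesin regulator Pds5a fell by 1.15 (adjusted p = 0.00372) and the release factor Wapal by 0.89 (adjusted p = 0.0138), while Stag1 (-0.34) and the loader gene Mau2 (0.05) did not pass. After centring, 6 general factor genes, 2 TFIID genes and 3 cohesin genes were lower, and 1 TFIID gene, Taf6, and 1 cohesin gene, Mau2, were higher. Of all tested genes 20.9% were then lower and 13.0% higher. The difference between these lists and Mediator was not tested. Fits without any one library leave 1 library in a group, so no calls are given from them for the 3 lists. Without the filter on low values 6 general factor genes, 2 TFIID genes and 0 cohesin genes were lower, against 11.4% of 22832 genes.

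The second question was where WDR43 and Pol II sat at the Mediator loci. A locus was said to have an end peak when a peak reached within 1 kb of either end, and peaks elsewhere in it were called inside. Orientation was known for the 28 loci matched to RefSeq. Of the 33 loci, 28 had a WDR43 end peak with DMSO, 31 in FB and 32 in cFB-KI, against 65.6%, 79.7% and 77.4% of all tested loci. End peaks in all 3 of these lists were found at 25 loci (59.2% of tested loci), and in 2 of them at the other 8. No Mediator locus had one in 0 or 1 list, as 14.2% and 8.19% of tested loci did. Mediator loci are protein-coding, and among the 10669 coding tested loci the shares for DMSO, FB and cFB-KI were 71.0%, 86.1% and 84.6%.

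The loci without a DMSO end peak were Med14, Med15, Med27, Med28 and Med29, the last with a peak inside only. Med12 and Med24 lacked one in FB and Med6 lacked one in cFB-KI. After DRB, 3 loci had an end peak (Med11, Med12l and Med22), against 10.1% of tested loci, and after ActD 0 did, against 0.385%. The DRB and ActD lists are short, with 4426 and 407 peaks against 31189 with DMSO, and each treatment is 1 library, so no test was made. The 3 DRB peaks scored 54.9 to 59.7, near the lowest deposited score of 50, and none lay over the first base of the locus. With DMSO, the WDR43 peak lay over the first base at 16 of the 28 oriented loci, in FB at 24 and in cFB-KI at 27, against 50.4%, 73.9% and 80.6% of oriented tested loci.

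**Figure D3:**
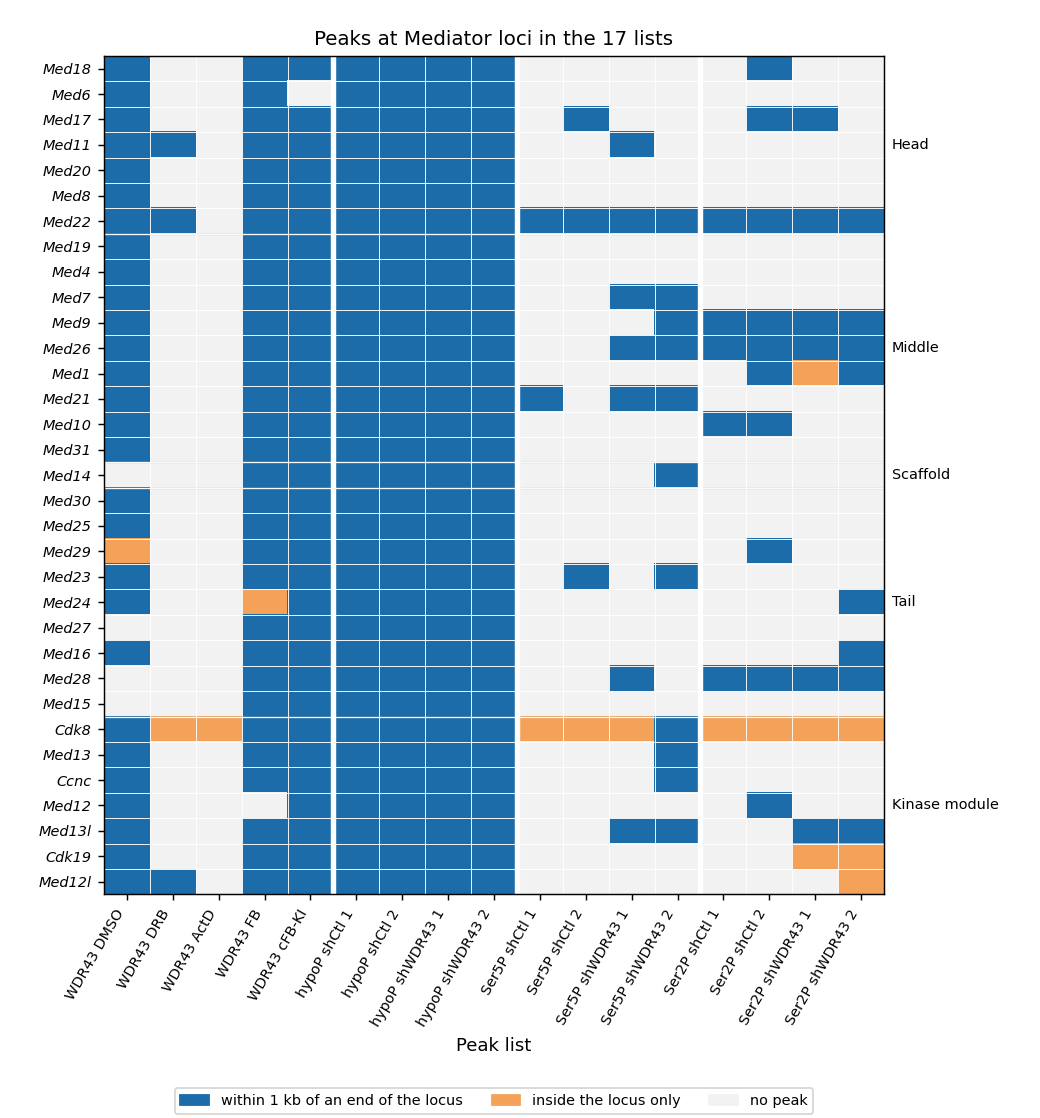
Peaks at the 33 Mediator loci (rows, by module) in the 17 lists (columns), marked as within 1 kb of an end of the locus, inside only, or none. The 4 hypoP columns are filled at all 33 loci, the ActD column is empty but for Cdk8, and Ser5P and Ser2P peaks stand at a minority of loci.

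Hypophosphorylated Pol II had an end peak at all 33 Mediator loci in all 4 libraries, Med12l among them. In the 4 lists 80.8% and 80.6% of tested loci had one with shCtl and 86.0% and 83.9% with shWDR43, and 78.1% had one in all 4. Among coding tested loci the shares were higher, at 87.3% and 87.1% with shCtl and 92.3% and 90.3% with shWDR43. At the 28 oriented loci the peak covered the first base in each of the 4 lists, against 85.2%, 84.9%, 89.9% and 88.1% of oriented tested loci. Its median reach was from 737 bp before to 743 bp after that base in shCtl 1 and from 786 to 791 bp in shCtl 2. In shWDR43 it reached from 1022.5 to 884.5 bp in library 1 and from 927.5 to 792 bp in library 2. Single loci went both ways between shCtl 2 and shWDR43 2. The reach before the first base was 1426 and 989 bp at Med17, and 710 and 984 bp at Med21. The reach over all tested loci was not computed. The widths in the 4 lists had medians of 1544, 1682, 1973 and 1578 bp, so shWDR43 1 was widest and shWDR43 2 lay within the shCtl range. Over all tested loci the medians were 1671, 1776, 2021 and 1773 bp, in the same pattern.

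**Figure D4:**
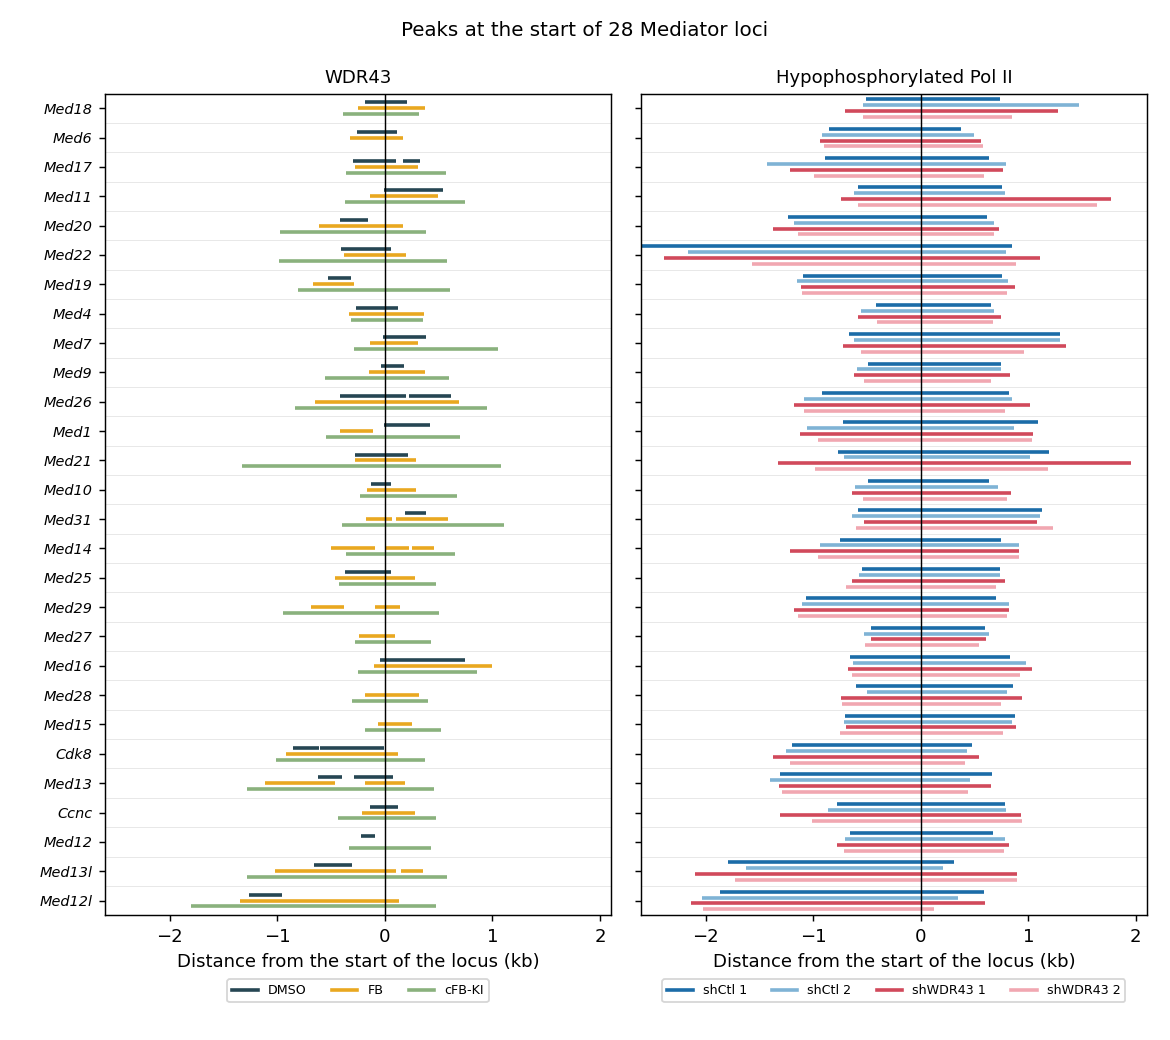
Extent of peaks at the start of the 28 oriented Mediator loci (kb from the first base, negative before it), for WDR43 (left, 3 lists) and hypophosphorylated Pol II (right, 4 lists). Every hypoP segment crosses the first base, and the Med22 segment of shCtl 1 runs on past the left edge to 6604 bp before it.

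Ser5P end peaks were few, at 2 and 3 Mediator loci in shCtl and at 7 and 11 in shWDR43. The background moved likewise, from 9.37% and 12.1% of tested loci to 28.2% and 32.8%, with 1879 and 2520 peaks in the shCtl lists and 6535 and 7589 in the shWDR43 lists. Med22 had a Ser5P end peak in all 4 lists (2.64% of tested loci did). Med7, Med13l and Med26 had none in shCtl and one in both shWDR43 libraries (10.4% did). The reverse was seen at 0 Mediator loci, against 0.321%. At 19 loci no list had one, against 53.7%.

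The peaks gained at these 3 genes lay over their starts. At Med26 they ran from 343 bp before to 504 bp after the first base in shWDR43 1 and from 827 to 343 bp in shWDR43 2. At Med13l they ran from 1101 to 379 bp and from 1181 to 64 bp, and at Med7 from 187 to 693 bp and from 171 to 378 bp. Their deposited scores, the authors' own values, were 103.06 and 66.62 at Med26, 97.63 and 68.65 at Med13l and 69.68 and 50.66 at Med7. Among these 6 peaks only that of Med26 in shWDR43 1 scored at least 100.

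Ser2P end peaks stood at 5 and 10 Mediator loci in shCtl and at 6 and 8 in shWDR43, against 25.7%, 27.9%, 23.0% and 23.4% of tested loci. The 2 shCtl libraries thus differed more from each other than the shWDR43 libraries did. Of the 28 oriented loci, 4 and 9 in shCtl and 5 and 5 in shWDR43 had the peak at the end away from the start, against 22.5%, 24.7%, 18.7% and 19.1% of oriented tested loci. The start held one at 2 loci in each list, against 8.31%, 9.33%, 8.90% and 9.10%. Med9, Med22, Med26 and Med28 had an end peak in all 4 lists (14.5% of tested loci did), and at 20 loci no list had one (62.6%).

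These 4 genes differed in where the Ser2P peak lay. At Med26 it lay at the far end of the locus and was 2767 to 4703 bp wide. At Med9 it lay at the far end too, 1086 to 1540 bp wide. At Med28 it crossed the start, from 477 to 632 bp before to 715 to 839 bp after the first base. At Med22 the widest peak, 4497 to 5266 bp, lay on the start side, mostly before the first base. There the start of Med22 lies 165 bp from Rpl7a, a ribosomal protein gene at 2010.95 FPKM in shCtl and 1043.00 in shWDR43, so the peaks of this pair cannot be told apart.

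Med10 had a Ser2P end peak in both shCtl lists and in neither shWDR43 list (2.98% of tested loci did), at its far end with scores of 83.91 and 58.27. Med13l had one in neither shCtl list and in both shWDR43 lists (1.18% did), at its far end with scores of 62.61 and 91.03. RNA of neither gene passed the test. At Med13l both phosphorylated forms were thus listed in both shWDR43 libraries and in neither shCtl library. The share of tested loci with this joint pattern was not computed, so it is not read as particular to Med13l. With peaks of a score of at least 100, none of these Med10 and Med13l peaks is kept.

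Cdk8 was the Mediator locus with a peak in all 17 lists, which 25 of 12452 tested loci (0.201%) had. The shared peak lay inside the locus, at chr5:147072556-147072996 (mm9) in the 441 bp common to all lists, 29.30 to 29.75 kb from the start of the locus. It was there after ActD, where it ranked 70 of 407 by score, and after DRB, where it ranked 37 of 4426. It ranked 1 in Ser5P shCtl 2, shWDR43 1 and shWDR43 2, and its lowest rank was 126 of 24485, in hypoP shWDR43 2. It was among the first 1% of peaks in 16 of the 17 lists. Of the 407 ActD peaks, 35 lay at a place with a peak in every other list. Exons are not given in the table, so the place is named only as inside the locus. A peak listed for every antibody and treatment may be an artefact of read mapping, which was not tested. It is therefore not read here as binding of WDR43 or Pol II.

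The start of Cdk8 had peaks of its own. There, WDR43 peaks were listed with DMSO, FB and cFB-KI and hypoP peaks in all 4 libraries, with hypoP scores of 604.90 and 570.95 in shCtl and 1245.79 and 633.39 in shWDR43. A Ser5P peak was listed there in shWDR43 2 only, with a score of 56.17. Start peaks were listed in neither the DRB nor the ActD library, and no Ser2P list held one. Cdk8 RNA, which fell most among the tested Mediator genes, was thus lower while its start kept hypoP peaks in both shWDR43 lists. This is not particular to Cdk8, since all 33 Mediator loci and 78.1% of tested loci had a hypoP end peak in all 4 lists. Scores come from separately called lists and show no change between them.

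**Figure D5:**
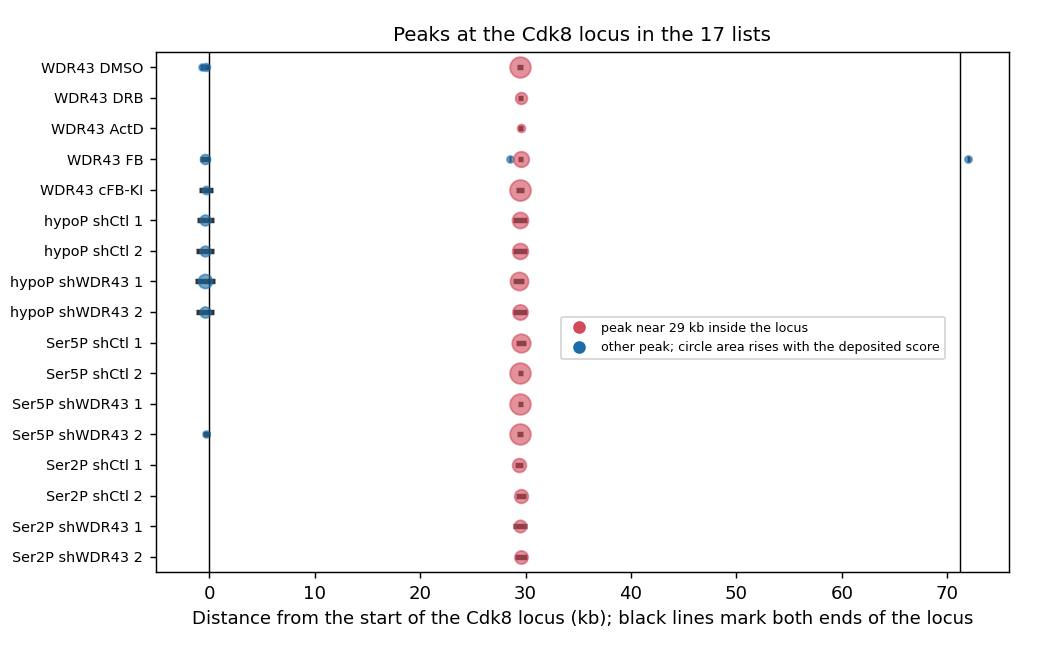
Peaks at the Cdk8 locus in the 17 lists (rows) by distance from the start of the locus in kb, with the bar giving the extent and the circle area rising with the deposited score. The peak near 29 kb stands in every row, and the peak at the start is missing from the DRB, ActD, Ser2P and all but 1 of the Ser5P rows.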

How the data were processed

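For 17 chromatin libraries the authors deposited a peak list each, with a score per peak, at least 50 in every list, that was used here only within its own list. Reads were aligned to mm9 with Bowtie2, per the submitters' processing notes. The sources used here do not give the peak caller's version, threshold and control, and depth is unknown. The authors also deposited a table of 38582 genes with 1 value per library. RNA reads were processed with TopHat and Cufflinks, per the submitters' processing notes. The unit of the values the authors deposited was taken as FPKM, since Cufflinks writes it and the table names none. Per the labels, polyadenylated RNA was used. Each group had 2 biological replicates, per the file headers. The table's title names spike-in, but it holds no spike-in rows, and the sources used here do not give the scaling or the use of strand. Values have 1 decimal, and their read depth is unknown. A signed fold change and an unadjusted p-value per gene were deposited too, whose test the sources used here do not give.

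RNA was compared with limma 3.58.1 (R 4.3.3, intensity trend) on log2(FPKM + 1), with 2 libraries per group, for the 12452 genes whose mean FPKM reached 1. Adjustment was by Benjamini-Hochberg over these genes, with a threshold of 0.05. This scale understates fold changes of genes with low values. On simulated data from the same 12452 genes, with 50 changed at each size, the fit recovered 3 of the 1.5-fold, 25 of the 2-fold, 44 of the 4-fold and 50 of the 8-fold changes, with 9 false calls. These shares do not give the recovery in the data, where more genes passed and the adjusted threshold is easier to reach.

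Peaks were placed with bounds of 1 kb and an overlap of at least 1 bp. Loci and peaks were read as 0-based starts and are printed 1-based, on mm9. Promoters and strands come from RefSeq (GRCm38.p6), and no coordinates were moved between builds. Samples were grouped by title. Of the 27 samples the labels describe, those without a peak list or RNA values are not used here. The alternatives were other pseudocounts (0.1 and 5), no filter or a minimum of 5 FPKM, median centring, no intensity trend, a replicate block, each library left out, and, for peaks, other windows (0.5 and 2 kb, and the whole locus), a score of at least 100 and an overlap of 100 bp. The same alternatives for genes outside Mediator were added with the data in view. The Mediator genes and the gene and marker lists were chosen with earlier results of these data known. All Mediator genes could be named. Values in all 4 libraries were to be given for the 2 lowest and 2 highest genes of each module, for Med14 and for paralog pairs. For the other lists the 2 lowest and 2 highest tested genes were named.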

Additional observations from a re-analysis of the deposited data

How the results depend on the processing

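The number of lower Mediator genes, 13, was 3 without a filter on low values (11.4% of 22832 genes were lower), 3 after median centring (20.9%), 8 without the intensity trend (41.1%) and 0 (from 0 to 0) with any one library left out. It stayed within 1.5 times of 13 with both other pseudocounts and the minimum of 5 FPKM, which added Med1, Med7, Med23 and Med26 (61.9% of 7893 genes were lower). The number of higher Mediator genes, 0, became 3 after centring. Over all tested genes, the lower count of 5322 was 2593 without a filter, 2606 after centring and 0 to 0 with a library left out. The higher count of 760 was 402 without a filter, 472 with the minimum of 5 FPKM, 1615 after centring and 0 to 0 with a library left out. The median log2 fold change of the Mediator genes was -0.0512 after centring. Centring turned the sign of Cdk19 (0.15), Med8 (0.0665), Med10 (0.22), Med13l (0.0758), Med16 (0.27), Med20 (0.0356), Med22 (0.0922), Med24 (0.18), Med27 (0.23), Gtf2e1 (0.17) and Taf8 (0.10). With 1 library left out, Med16 ranged from -0.1375 to 0.0101, the latter without shWDR43 replicate 1, and Med27 from -0.2068 to 0.0105, the latter without shCtl replicate 2. Leaving out a library moved the log2 fold change by over 1.5 times, or turned it, for 1 of the 13 called genes (Med13) and for 14 of the 19 others. This bound is a ratio, so small log2 fold changes pass it more easily. The called genes were also picked in the same libraries for large and steady changes. The contrast was thus largely fixed in advance, and the share over all tested genes was not computed. Centring shifts each gene by the same amount, and leaving out a library removes a sample. The cause of the other differences was not tested.

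Replicate numbers shared by the groups mark no stated common origin. Deviations of same-numbered libraries correlated at 0.0504 across 12452 genes. With the replicate number as a block, 18 Mediator genes were lower (47.6% of all tested genes were), 0 were higher, and all 13 genes were among the 18. The other 5 were Med1, Med7, Med23, Med26 and Med29. With the block 9 cohesin genes were lower in place of 5.

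With a score of at least 100, end peaks were left at 0 Mediator loci after DRB, at 0 and 0 in Ser5P shCtl, at 3 and 3 in Ser5P shWDR43, at 2 and 3 in Ser2P shCtl and at 2 and 2 in Ser2P shWDR43. In these lists the highest end-peak score per tested locus had medians of 61.0 to 93.8. Most tested loci with an end peak therefore lose it too under this cut. Their exact share was not computed, so the drop is not particular to Mediator loci. Counting the whole locus gave 1 after ActD. Depth is unknown for all libraries, so an absent peak was not detectable under the authors' threshold and is not shown to be missing.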

Other observations

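A second protein-coding locus ends or starts within 1 kb of 13 of the 33 Mediator loci (39.4%), and of 29.6% of the 10669 coding tested loci. The difference was not tested. On the start side this holds for 5 of the 28 oriented Mediator loci (17.9%) and for 18.2% of the 8083 oriented coding tested loci. The neighbours of Med8 and Med24 lie at an end whose orientation is not known. Bysl, a ribosome assembly factor 104 bp from Med20, stood at 19.80 FPKM in shCtl and 13.80 in shWDR43 and fell (log2 fold change -0.49, adjusted p = 0.0178). Paf1, a subunit of an elongation complex, 306 bp from Med29, stood at 44.70 and 25.80 and fell (-0.77, adjusted p = 0.00503). Tmx2, 355 bp from Med19, stood at 29.70 and 32.20 FPKM and did not pass (0.11, adjusted p = 0.540), while Med19 fell. A peak in reach of both loci of a pair was counted for each.

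Inside peaks other than that of Cdk8 were also listed. Cdk19 had Ser2P peaks inside its locus in both shWDR43 lists, 758 and 1122 bp wide with scores of 70.91 and 54.55, and no Ser2P peak in shCtl. Med12l, at 0.35 FPKM in shCtl, had a second hypoP peak inside its locus in all 4 lists, between 278385 and 279833 bp from its start, with scores of 160.92 and 186.56 in shCtl and 406.87 and 131.36 in shWDR43. Med15 had a hypoP peak inside its locus in 3 of the 4 lists, about 14 kb from its start, with a score of 58.60 in shCtl 1, 182.12 in shWDR43 1 and 62.99 in shWDR43 2.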
